A study of Mus musculus with 2 samples.

Results

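Complex I, the NADH:ubiquinone oxidoreductase of the inner mitochondrial membrane, is the entry point of electrons from NADH into the respiratory chain. Its matrix arm holds the N module, which oxidises NADH, and the Q module, which reduces ubiquinone. Its membrane arm pumps protons and is built around subunits encoded on the mitochondrial chromosome, while all other subunits are encoded in the nucleus. Assembly factors bind the parts while they are put together and are absent from the finished enzyme. Purkinje cells, the large inhibitory output neurons of the cerebellar cortex, fire continuously and depend on mitochondrial ATP supply.

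The nuclear complex I genes were chosen by name, as protein-coding genes whose GENCODE symbol starts with Ndufa, Ndufb, Ndufc, Ndufs, Ndufv, Ndufab or Ndufaf and a number. The rule found 46 genes of the 21474 protein-coding genes in the tables, of which 38 were subunits and 8 were Ndufaf assembly factors. Of the 51 symbols that match the pattern, the other 5 are not protein-coding in the annotation: the processed pseudogenes Ndufa11b, Ndufab1-ps, Ndufb4c and Ndufs6b, and Ndufb1-ps. The members lie on 17 chromosomes, with Ndufa1 and Ndufb11 on X.

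RNA was measured by RNA-seq in 2 libraries of 1 group, pool 1 and pool 2, each made from 50 Purkinje cells, isolated by laser capture per the labels' protocol links, of wild-type male C57Bl6 mice (strain B6NCrl) aged 8 months, with RNA over 200 nt and added spike-in RNAs. No treatment or second genotype was included, so the only contrast is that between the pools. The labels attach 1 donor identifier to both pools, and the spread between them may be technical. A Smart-seq protocol is linked for pool 2 alone, so library preparation and pool cannot be told apart.

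The libraries held 23830685 and 27907662 expected counts, and spike-ins took 1.40% and 0.940% of them. All 8 Purkinje cell markers examined were detected, with Pvalb the highest at 7401 ± 1092 TPM (mean ± SD of the pools, n = 2, as below). TPM is the level of a transcript per length, as a share of its library. Markers of Bergmann glia and astrocytes were present as well, with all 8 detected and summed levels of 4173 TPM in pool 1 and 4450 TPM in pool 2. Summed levels of the other marker lists were 90.6 and 119 TPM for granule cells (4 of 5 detected), 120 and 106 TPM for oligodendrocytes (5 of 5), 15.6 and 20.7 TPM for microglia (3 of 5), 70.1 and 98.2 TPM for endothelium (4 of 4) and 44.3 and 41.1 TPM for pericytes or mural cells (3 of 6). Blood markers (5 of 5 detected) summed to 651 TPM in pool 1 and 2274 TPM in pool 2. No marker of these lists was at 0 in a pool. The part of other cell types in the complex I levels was not tested, and in such pools fewer cells of a type and less RNA per cell cannot be told apart.

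The sequences around 2 features of these genes are shown first. The first feature is copies, on which the level of Ndufb4 below depends. Ndufb4, a distal membrane arm subunit on chromosome 16 (37647170 to 37654453, minus strand, GRCm38), has a processed copy, Ndufb4c, on chromosome 15 (73809507 to 73809896, minus strand). All 387 bases of the Ndufb4 coding sequence in GENCODE M21 are identical in the copy, so a read inside it fits both genes equally. The first 150 bases are given for each gene, and no base is in capitals because none differs.

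Ndufb4: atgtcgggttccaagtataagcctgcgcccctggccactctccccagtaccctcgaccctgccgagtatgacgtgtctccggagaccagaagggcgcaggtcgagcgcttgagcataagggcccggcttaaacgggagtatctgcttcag
Ndufb4c: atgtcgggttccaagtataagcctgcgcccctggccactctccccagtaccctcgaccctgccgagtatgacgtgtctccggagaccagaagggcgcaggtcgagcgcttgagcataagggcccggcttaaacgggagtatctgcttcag

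Where a copy differs by a base, reads over that base can tell the pair apart. Ndufab1, the mitochondrial acyl carrier protein (chromosome 7), and its copy Gm4459 differ at 1 of 468 coding bases, G137A, counted from 1 at the first coding base and with the base of the subunit gene first. Ndufs5, a small membrane arm subunit (chromosome 4), and its copy BC002163 on chromosome 16 differ at T81C and A105G. The stretches show bases 87 to 186 of the first pair and 31 to 130 of the second, with differing bases in capitals.

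Ndufab1: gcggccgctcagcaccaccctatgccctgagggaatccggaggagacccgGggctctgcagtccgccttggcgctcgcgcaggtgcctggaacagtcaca
Gm4459: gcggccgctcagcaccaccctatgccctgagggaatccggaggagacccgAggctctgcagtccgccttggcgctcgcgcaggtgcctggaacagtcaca
Ndufs5: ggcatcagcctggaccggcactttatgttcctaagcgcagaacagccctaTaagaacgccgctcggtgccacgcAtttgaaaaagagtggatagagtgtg
BC002163: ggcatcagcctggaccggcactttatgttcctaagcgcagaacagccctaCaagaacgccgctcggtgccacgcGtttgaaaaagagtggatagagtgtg

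The second feature lies at the start of the genes and shows letters that members share. It was not related to their levels. In windows of 250 bases before and 50 bases after the RefSeq start (GRCm38.p6), which were found for 40 of the 46 members, the letters AAGATGG of the YY1 motif were present in 8. YY1 is a zinc finger factor that can bind at transcription starts. All 8 matches were on the sense strand and began 10 to 38 bases after the start, counted from 0 at the first transcribed base. In 7 of the 8 genes the ATG inside these letters was the first codon of a coding sequence in GENCODE M21, the exception being Ndufaf8. Each is given with up to 10 bases on either side and the match in capitals.

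Ndufa3, chr7:3617385-3617411, plus strand: cgccaagaacAAGATGGccgggagtaa
Ndufa9, chr6:126849099-126849125, minus strand: attgtgggagAAGATGGcggccgccgt
Ndufaf8, chr11:120098934-120098960, plus strand: ggcagggcccAAGATGGcggcgccctc
Ndufb8, chr19:44555393-44555414, minus strand: ggagaaggtgAAGATGGctgcc
Ndufc1, chr3:51408917-51408943, minus strand: cctgcggaacAAGATGGcgccgtccgt
Ndufs4, chr13:114388045-114388069, minus strand: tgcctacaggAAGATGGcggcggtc
Ndufs6, chr13:73328433-73328459, minus strand: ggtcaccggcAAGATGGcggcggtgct
Ndufs7, chr10:80249463-80249489, plus strand: ggccgaggccAAGATGGcggcgctggc

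Searched on both strands, AAGATGG was in the window of 20% of these members, of 8.87% of the 8801 protein-coding genes of the RefSeq table that were detected in both pools, and of 7.18% of its 17492 protein-coding genes. A sense match after the start, counted once its position in the members had been seen, was present in 20% of the members, 3.20% of the detected genes and 1.92% of all protein-coding genes. A match is a description of letters and not a site of binding.

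The NRF1 letters CGCANGCGC were present in 11 of the 40 members (27.5%), against 16.6% of detected and 9.68% of all protein-coding genes. NRF1 is a factor known for its part in the transcription of respiratory chain genes. In Ndufa11, Ndufaf4 and Ndufaf5 the letters overlapped on both strands, as shown with 10 bases on either side of the first match.

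Ndufa11, chr17:56717692-56717720, plus strand: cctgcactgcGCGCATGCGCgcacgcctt
Ndufaf4, chr4:24897960-24897988, plus strand: ccagatgtctGCGCATGCGCctgtgcgga
Ndufaf5, chr2:140170652-140170680, plus strand: agtcccgttgGCGCATGCGCctaatagaa

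Matches to NRF1 were spread over positions -190 to 23 from the start, unlike those to YY1. Of the 18 members with either set of letters, Ndufs6 alone held both. Of the other letters searched, the ETS letters CCGGAAG were in 15% of the members against 21.2% of detected genes, the GC box GGGCGG in 52.5% against 69.9%, CCAAT in 35% against 43.6%, TATAAA in 10% against 8.33%, and the ERR half-site AAGGTCA in 7.5% against 3.61%.

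**Figure D1:**
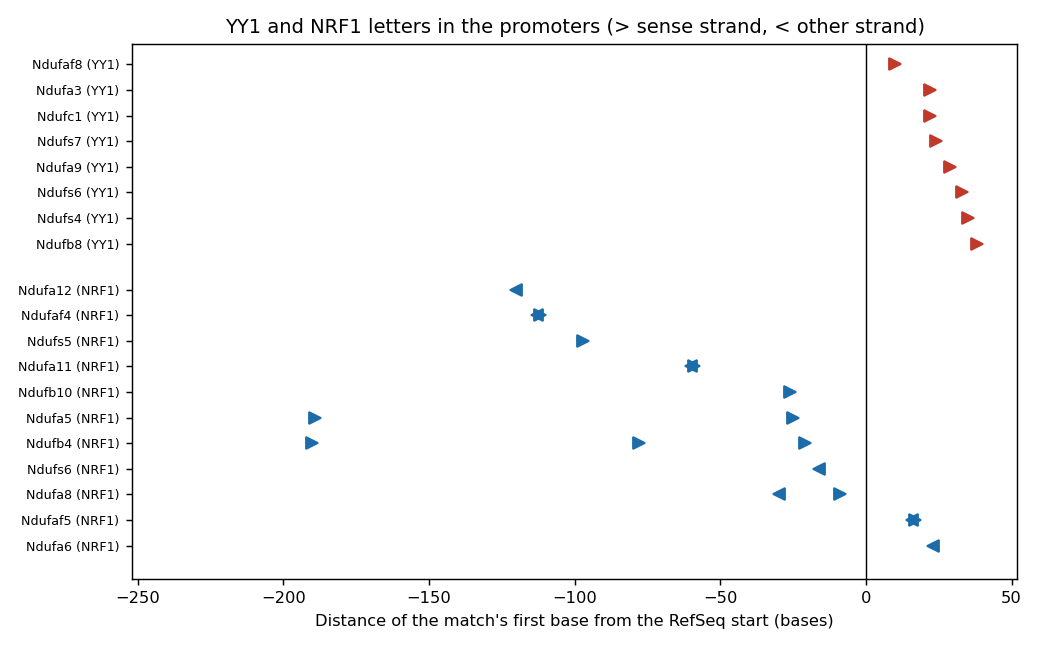
Position of the YY1 letters (red) and NRF1 letters (blue) in the promoter windows of the members that hold them, with the distance in bases from the RefSeq start on the x axis and 1 gene per row. Triangles point right for the sense strand and left for the other strand. YY1 matches begin 10 to 38 bases after the start in all 8 genes, and NRF1 matches lie on both sides of it.

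Complex I subunits other than Ndufa4l2 were among the more abundant protein-coding transcripts of the pools, and assembly factors lay lower. With detection set at TPM 1 or more in each pool, 37 of 38 subunits and 8 of 8 assembly factors were detected, against 51.7% of all protein-coding genes. The subunits had a median of 777 ± 31.0 TPM and the assembly factors a median of 79.5 ± 4.09 TPM, against 12.1 ± 0.732 TPM over the detected protein-coding genes. Short genes had higher TPM in general, so the lists were also set beside genes on the same side of 1000 nt. Under 1000 nt the medians were 968 ± 90.5 TPM for 28 subunits, 132 ± 10.8 TPM for 4 assembly factors and 78.3 ± 5.04 TPM for detected protein-coding genes. At 1000 nt or more they were 332 ± 4.34 TPM for 10 subunits, 66.4 ± 0.407 TPM for 4 assembly factors and 10.8 ± 0.728 TPM for detected genes. This longer class is broad. Between 1000 and 2000 nt, 8 subunits had a median of 372 ± 7.51 TPM. Protein-coding genes of that length that average 1 TPM or more had a median of 21.5 ± 0.509 TPM. On the log2(TPM + 1) scale the subunit median was higher than the assembly factor median by 3.28 ± 0.01, a ratio of 9.75 in pool 1 and 9.65 in pool 2 on that scale. Together the subunits took 4.22% of protein-coding TPM in pool 1 and 4.59% in pool 2, and the assembly factors 0.0963% and 0.0991%. Apart from Ndufa4l2, the lowest subunit stood at percentile 95.8 of all protein-coding genes and the lowest assembly factor at percentile 86.5.

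**Figure D2:**
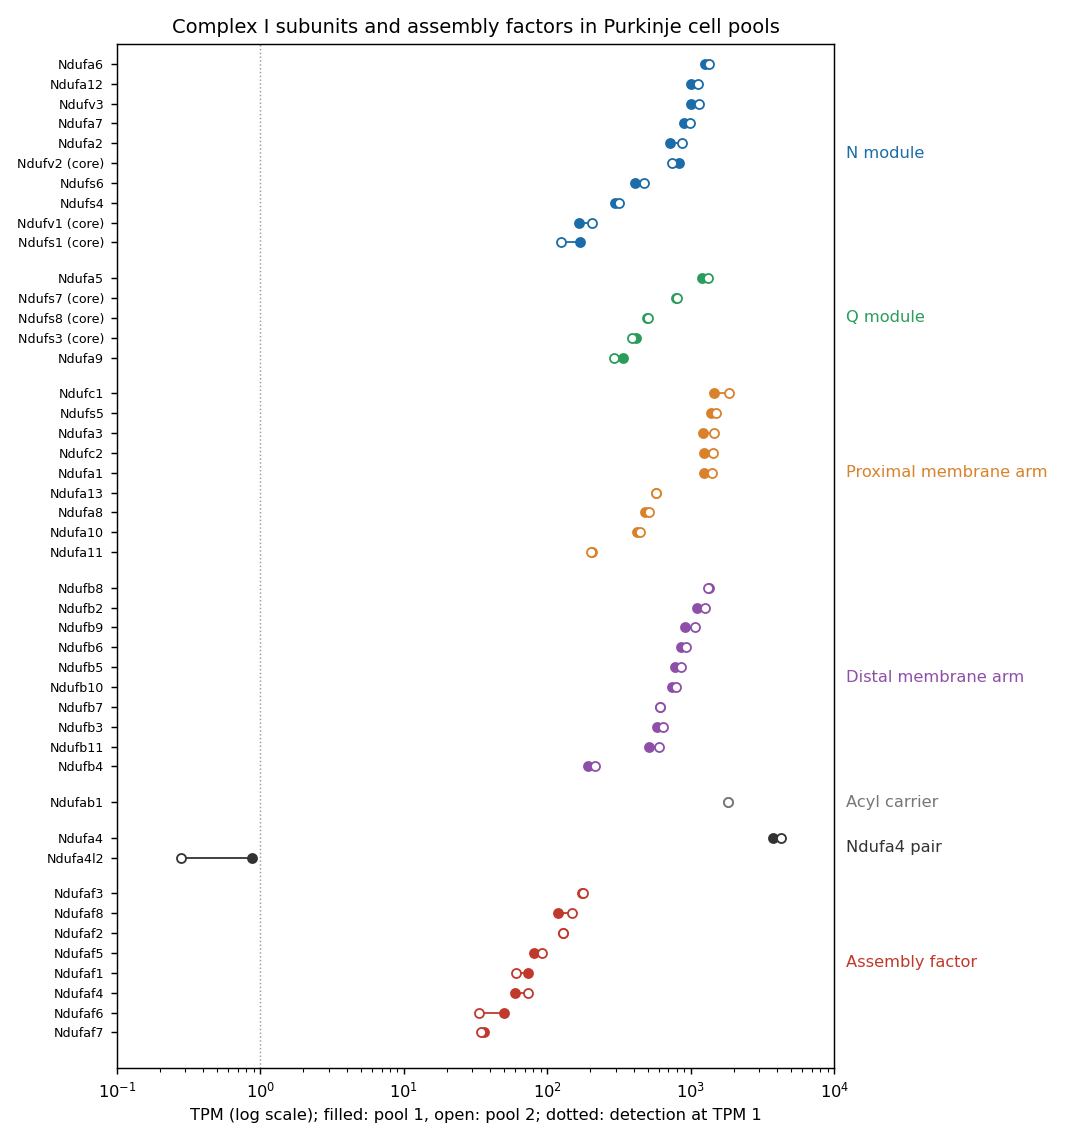
TPM of 45 of the 46 genes in pool 1 (filled) and pool 2 (open) on a log x axis, grouped by module, with core subunits named. Subunits other than Ndufa4l2 lie between 124 and 4278 TPM and assembly factors between 33.3 and 177 TPM. Within a pool these groups overlap only at the subunits Ndufs1 and Ndufv1 and the assembly factors Ndufaf3, Ndufaf8 and Ndufaf2.

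The lowest subunits and the highest assembly factors overlapped. Ndufaf3 had 176 TPM in pool 1 and 177 TPM in pool 2. Ndufs1 was below it in both pools, and Ndufv1 was below it in pool 1. In pool 2 Ndufs1, at 124 TPM, was also below Ndufaf8 at 149 TPM and Ndufaf2 at 129 TPM. The other subunits, apart from Ndufa4l2, were above every assembly factor in both pools.

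The N module binds NADH and passes its electrons along iron-sulphur clusters. Its 10 genes had a median of 792 ± 24.9 TPM. Of the 3 core subunits, those shared with bacterial complex I, Ndufv1, which binds NADH and the flavin, had 166 and 204 TPM in pools 1 and 2. Ndufs1, the largest subunit and the holder of several iron-sulphur clusters (chromosome 1, 63143596 to 63176833), had 168 TPM in pool 1 and 124 TPM in pool 2. Ndufv2, with 1 cluster, had 834 and 745 TPM. Ndufv1 and Ndufs1 were the lowest genes of the module and Ndufv2 was above both in each pool.

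The 7 supernumerary genes of the N module, which have no counterpart in the minimal bacterial enzyme, had a median of 944 ± 72.6 TPM. Ndufa6, a small LYR-motif protein that binds the acyl carrier, led with 1263 TPM in pool 1 and 1337 TPM in pool 2. Ndufa12, a relative of the assembly factor Ndufaf2, had 1011 and 1128 TPM. The lowest was Ndufs4, whose loss in mice is used as a model of mitochondrial encephalopathy, with 305 ± 14.8 TPM.

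The Q module carries the last clusters and the ubiquinone site. Its 6 genes had a median of 451 ± 6.76 TPM, the lowest of the 4 modules. Among its core subunits, Ndufs7, Ndufs8 and Ndufs3 ranked in that order in both pools, from Ndufs7, which holds the cluster next to ubiquinone, at 786 and 808 TPM, through Ndufs8 at 497 and 502 TPM, to Ndufs3 at 416 and 391 TPM. Each pair of neighbours in this order was apart by more than the difference between the pools. Of the 2 supernumerary genes, Ndufa5 had 1207 and 1322 TPM, and Ndufa9, of the short-chain dehydrogenase family, had 339 and 294 TPM.

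The proximal membrane arm, next to the matrix arm, had the highest median of the modules, 1321 ± 136 TPM over 9 genes. Ndufc1, a small membrane subunit, had 1448 TPM in pool 1 and 1851 TPM in pool 2. Ndufs5 had 1385 and 1490.1 TPM. Ndufa3, Ndufc2 and the X-linked Ndufa1 had means of 1336 ± 158, 1327 ± 139 and 1324 ± 132 TPM and could not be ranked beyond their spread. Ndufa13, also known as GRIM-19, Ndufa8 and Ndufa10 lay lower, at 572 ± 2.61, 498 ± 20.7 and 433 ± 11.3 TPM. Ndufa11 was the lowest of the arm with 204 and 201 TPM.

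The distal membrane arm holds the 10 Ndufb genes, with a median of 790 ± 48.7 TPM. Ndufb8 led with 1332 TPM in pool 1 and 1309.6 TPM in pool 2, and Ndufb2 followed with 1099 and 1256 TPM. Ndufb9, another LYR-motif protein, had 915 and 1069 TPM. Ndufb7, Ndufb3 and the X-linked Ndufb11 were at 613 ± 1.93, 612 ± 42.6 and 554 ± 63.6 TPM, and differed from each other by less than the spread of Ndufb11. Ndufb4 was the lowest of the arm, with 193 and 215 TPM.

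Ndufab1, which serves in mitochondrial fatty acid synthesis as well as in complex I, had 1822 TPM in pool 1 and 1819 TPM in pool 2. It was second among the subunits in the mean of the pools, while in pool 2 Ndufc1, at 1851 TPM, was above it. The highest subunit in both pools was Ndufa4, with 3721 and 4278 TPM, which took 12.0% ± 0.409 of all subunit TPM. Ndufa4 carries the complex I name and is now known as a subunit of cytochrome c oxidase. Its paralogue Ndufa4l2, known from hypoxic cells, was the only subunit not detected. It had 15 counts and 0.88 TPM in pool 1 (95% exact Poisson interval 0.493 to 1.45 TPM) and 6 counts and 0.28 TPM in pool 2 (0.103 to 0.609 TPM). Without this pair the subunits ranged from Ndufs1 at 146 ± 31.3 TPM to Ndufab1 at 1821 ± 2.45 TPM, and the ratio of highest to lowest mean was 12.4.

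The assembly factors ranged from 35.3 to 176 TPM in the mean of the pools. Ndufaf3 and Ndufaf4 bind each other and the early Q module. Ndufaf3 was the highest, and Ndufaf4 had 59.3 TPM in pool 1 and 73.1 TPM in pool 2. Ndufaf8, the partner of Ndufaf5, had 119 and 149 TPM, and Ndufaf5, which hydroxylates Ndufs7, had 80.3 and 91.7 TPM. Ndufaf2, which joins late with the N module, had 129 TPM in both pools.

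Ndufaf1, which acts in the assembly of the membrane arm, had 73.0 TPM in pool 1 and 60.3 TPM in pool 2. Ndufaf6, needed for an early step, had 50.0 and 33.3 TPM. Ndufaf7, a protein arginine methyltransferase, was the lowest in the mean of the pools, with 36.1 and 34.6 TPM. Ndufaf3 was highest in both pools, while 3 neighbouring pairs changed places between them: Ndufaf2 and Ndufaf8, Ndufaf1 and Ndufaf4, and Ndufaf6 and Ndufaf7. The Spearman correlation between the pools was 0.93 across these 8 genes, which are not independent replicates.

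Of the assembly factors of complex I without the Nduf name that were searched, Coa1 was not found by its symbol. All 9 others were detected, with a median of 16.0 ± 0.177 TPM. Tmem126a and Tmem70 were the highest at 135 ± 5.47 and 134 ± 18.6 TPM. Ecsit, Acad9, Tmem126b, Timmdc1 and Tmem186, which work with Ndufaf1 on the membrane arm, had 35.8 ± 3.24, 15.5 ± 0.417, 47.3 ± 7.21, 15.9 ± 0.332 and 6.74 ± 1.36 TPM. Nubpl, which delivers iron-sulphur clusters, was the lowest at 4.95 ± 0.622 TPM. The 7 subunits encoded on the mitochondrial chromosome had a median of 1400 ± 47.1 TPM, led by mt-Nd1 with 5322 TPM in pool 1 and 4751 TPM in pool 2. Their summed TPM was 0.459 of the nuclear subunits' sum in pool 1 and 0.392 in pool 2. The nuclear sum includes Ndufa4, which took 12.0% of it.

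The order of the subunits followed the length of their transcripts on 1 scale and not on the other. Across the 36 subunits without the Ndufa4 pair, longer genes had lower TPM (Spearman -0.80 with the deposited gene length), while CPM, the share of counts not divided by length, had a Spearman correlation of -0.02 with it. Over the 11445 protein-coding genes that average 1 TPM or more the same correlations were -0.38 and 0.00. These points share their libraries, and TPM is made by dividing by length. In CPM the medians of the N, Q, proximal and distal modules were 356 ± 54.3, 358 ± 8.52, 377 ± 57.9 and 420 ± 50.2. The distal arm was the highest in both pools in CPM, while the proximal arm was the highest in both in TPM. The order of the N, Q and proximal modules in CPM differed between the pools.

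**Figure D3:**
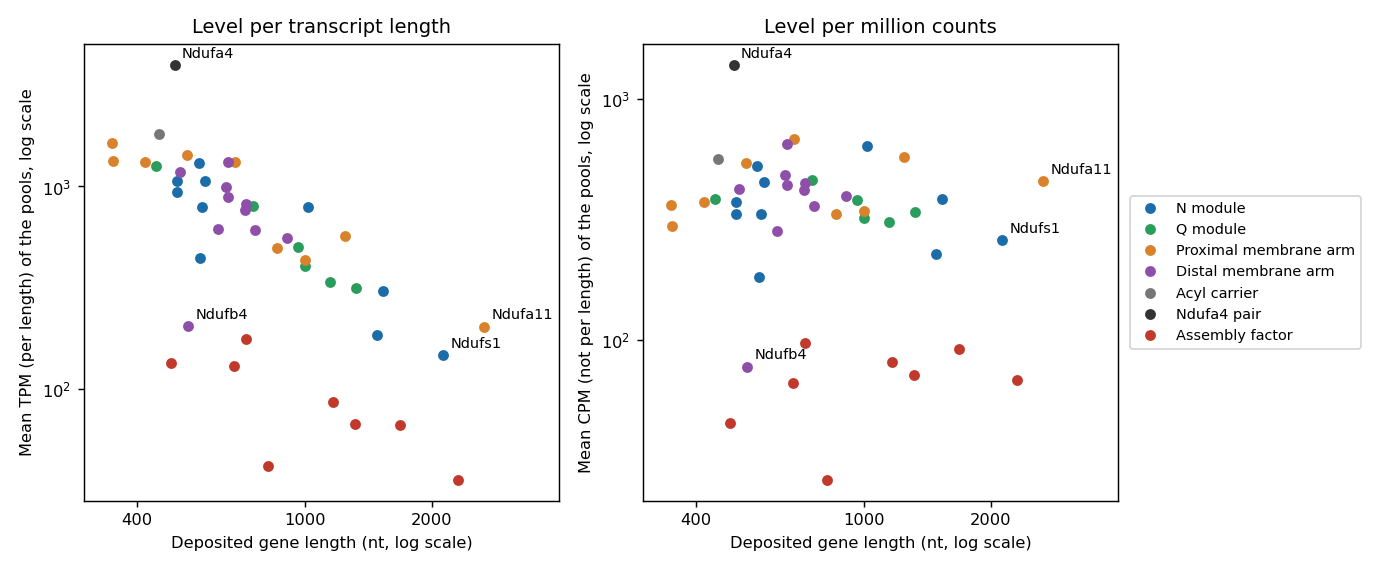
Mean TPM (left) and mean CPM (right) of the 45 detected members against deposited gene length, all on log axes and coloured by module. Longer subunits have lower TPM, while CPM shows no such slope, and Ndufb4 lies below subunits of similar length in both panels.

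Ndufa11 stood out on this scale. The tables give its single transcript a length of 2661 nt, while the same transcript has 545 nt in GENCODE M21, and 14 of 16 members with a single transcript had lengths within 10% between the releases. At the M21 length Ndufa11 would have 1172 TPM in pool 1 and 1154 TPM in pool 2. The other exception was Ndufaf7, with 2303 nt in the tables and 1749 nt in M21, and 48.2 and 46.2 TPM at the M21 length.

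The low level of Ndufb4 stands beside its identical copy. Ndufb4 had 1642 expected counts in pool 1 and 2339 in pool 2, and Ndufb4c had 5343 and 7395. The copy thus took 76.5% of the pair's counts in pool 1 and 76.0% in pool 2. Summed over the pair, the level was 1171 ± 75.5 TPM, which would rank 12 among the subunits in place of 34. How the reads of the shared sequence should be divided cannot be told from these values.

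Of the other near-identical copies, none had more than 10% of its pair. Of the summed counts of each pair, Gm4459 took 5.32% ± 0.290 with Ndufab1. BC002163 took 0.875% ± 0.0859 with Ndufs5, and Gm15920 took 0.968% ± 0.207 with Ndufa12. Gm12251 with Ndufs3, Gm6444 with Ndufb11, and Ndufab1-ps with Ndufab1 had 0.533%, 0.127% and 0.124%. As deposited, 27 of 38 subunits and 8 of 8 assembly factors had whole-number counts in both pools, and 11 subunits had fractional counts, which mark reads divided between genes.

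**Figure D4:**
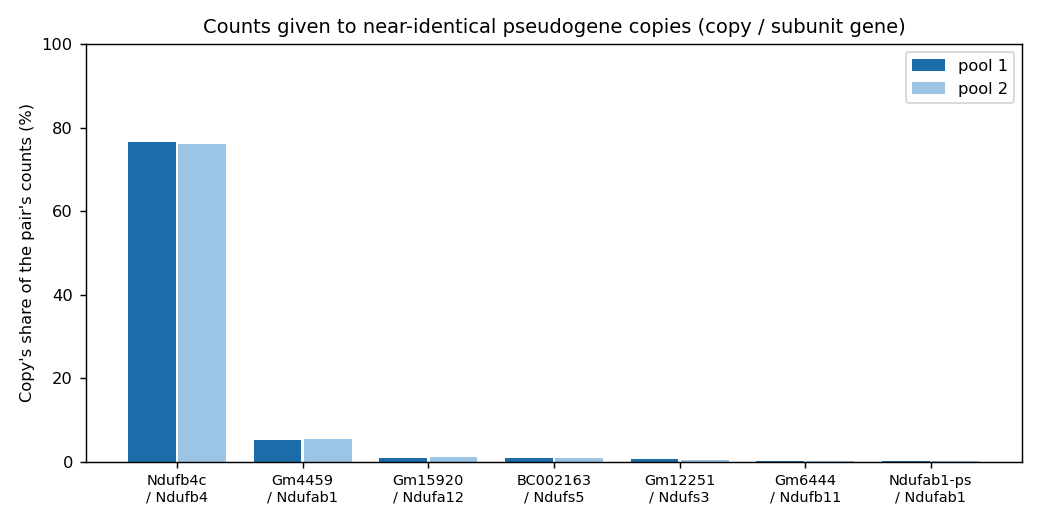
Share of the expected counts of each pair of subunit gene and near-identical pseudogene copy that was given to the copy, in percent on a y axis from 0 to 100, with 1 bar per pool. Ndufb4c holds 76.5% and 76.0% of its pair, and the other copies hold up to 5.52%.

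The pools were then compared gene by gene. Taking members with a mean of 1 TPM or more, none of 37 subunits and none of 8 assembly factors passed a ratio of 1.5 on the log2(TPM + 1) scale (0.58), against 9.33% of protein-coding genes with such a mean and 3.48% of those with a mean of 100 TPM or more. The members' counts are near the share of other abundant genes. On the scale of the spike-ins, which raises every gene in pool 2 equally, 33 of 37 subunits passed that ratio, against 49.8% of protein-coding genes. The subunit levels of the pools had a Spearman correlation of 0.99 across the 36 genes without the Ndufa4 pair. The median log2 ratio of pool 2 to pool 1 was 0.11 for the subunits and 0.00 for the assembly factors. It was -0.08 for all protein-coding genes that average 1 TPM or more, and 0.04 for those that average 100 TPM or more.

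Higher values in pool 2 were seen for 28 of 37 subunits and 4 of 8 assembly factors, against 40.5% of protein-coding genes. Among protein-coding genes that average 100 TPM or more, 708 of 1266 were higher in pool 2. With TMM scaling of the counts, 34 of 37 subunits and 6 of 8 assembly factors were higher, against 49.5% of protein-coding genes. The spike-in scale gave 37 of 37 and 8 of 8, against 95.6%. Length moved with this difference. Among genes under 1000 nt, 24 of 27 subunits were higher in pool 2, against 72% of protein-coding genes of that length. Of the 10 longer subunits, 4 were higher in pool 2, against 36.8% of protein-coding genes of 1000 nt or more. After an adjustment for transcript length and expression the subunit median was 0.02, with 24 of 37 higher, against 50% of protein-coding genes, and that of the assembly factors was -0.02, with 4 of 8 higher. The Purkinje cell markers examined, with a median length of 3961 nt, had a median log2 ratio of -0.45, or -0.18 after the adjustment, and the blood markers 1.79, or 1.67. Before the adjustment, 6 of the 8 Purkinje cell markers were lower in pool 2, while Pvalb (0.30) and Pcp2 (0.06) were higher. Of the 5 blood markers 4 were higher, and Alas2 was lower (-0.41). The part of cell makeup or of library preparation in the subunit difference was not tested.

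**Figure D5:**
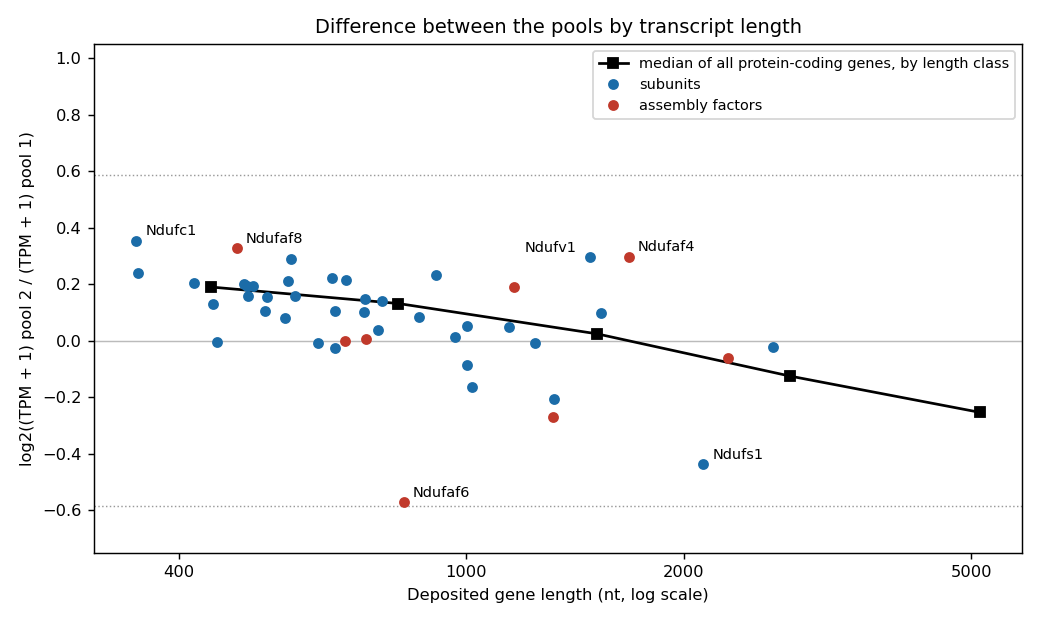
Log2 ratio of pool 2 to pool 1 in TPM + 1 against deposited gene length (log axis) for 37 subunits (blue) and 8 assembly factors (red), with the median of all protein-coding genes in 5 length classes (black squares) and dotted lines at a ratio of 1.5. No member crosses the dotted lines, and longer subunits have lower ratios, as the medians of all genes do.

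The member closest to the threshold was Ndufaf6 (chromosome 4, 11051045 to 11076205). It had 720 counts and 50.0 TPM in pool 1 (95% exact Poisson interval 46.4 to 53.7 TPM), and 599 counts and 33.3 TPM in pool 2 (30.7 to 36.1 TPM), a log2 ratio of -0.57. After the adjustment for transcript length and expression its log2 ratio was -0.65, past the threshold, while no subunit passed. The share of all protein-coding genes past the threshold after the adjustment was not computed. Without the adjustment, Ndufs1 followed with 168 TPM (164 to 172) against 124 TPM (121 to 127), a log2 ratio of -0.44. The intervals of these genes did not overlap between the pools. The same was true of 28 of 37 subunits and 5 of 8 assembly factors, and of 52.2% of protein-coding genes that average 1 TPM or more and 73.9% of those that average 100 TPM or more. Those of Ndufaf3, at 169 to 184 and 170.4 to 183 TPM, overlapped. Such intervals hold counting error alone, because without molecular identifiers several reads can come from 1 molecule. The largest ratios in the other direction were 0.35 for Ndufc1, 0.33 for Ndufaf8, 0.30 for Ndufaf4 and 0.30 for Ndufv1.

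The tables split 30 of the 46 genes into several transcripts, and in 29 of these the same transcript led in both pools by its percent of the gene's TPM. Over all protein-coding genes with several transcripts, the leader was the same in 87.1% of those that average 1 TPM or more and in 95.1% of those that average 100 TPM or more, so the members' share is close to that of other abundant genes. The shares themselves moved by 5 percentage points or more for some transcript in 8 of the 30 genes. Examples are a minor transcript of Ndufaf6 with 5.21% in pool 1 and 14.5% in pool 2, and one of Ndufv1 with 18.2% and 26.3%. The leader exceeded 80% in 18 of the 30 genes and was under 50% in 7. Ndufb6, Ndufb7 and Ndufc2 were each made up almost wholly of 1 transcript, at 99.8% ± 0.219, 99.985% ± 0.00707 and 99.5% ± 0.113. Ndufs1 has 13 transcripts in the tables, 10 of them with counts in a pool, and its leader held 51.05% in pool 1 and 49.3% in pool 2.

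Ndufaf4 was the exception. A transcript of the processed type, without a coding sequence in the annotation, led in pool 1 with 50.5% and held 45.3% in pool 2, where a protein-coding transcript led with 48.7% after 42.2% in pool 1. By expected counts the processed transcript led in both pools. Leaders of a type other than protein-coding were found in 5 of the 30 genes in pool 1 and 4 in pool 2. Besides Ndufaf4 these were the retained-intron transcripts of Ndufa10 (30.8% ± 1.52), Ndufaf8 (57.9% ± 1.25) and Ndufb4 (87.2% ± 0.424) and a processed transcript of Ndufa5 (87.7% ± 0.983). In Ndufb4 the leader has 465 nt in the tables and the protein-coding transcript, with 12.8% ± 0.424, has 971 nt. The coding sequence of Ndufb4 is identical in Ndufb4c, so these percentages depend on how reads were divided between the pair. That division cannot be told from these values.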

How the data were processed

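Gene and transcript tables of 2 Purkinje cell pools were used. Per the accompanying notes, the authors quantified transcriptome alignments to mm10 with GENCODE M4. Which aligner, quantification tool and strand setting they used was not stated in the sources used here. Expected counts, as deposited, are estimates without normalization, and some are fractional. TPM was scaled by the authors within each library, spike-ins included. The percent of each transcript in its gene's TPM is deposited by the authors per the file headers. The deposited posterior SD of the count was read and is not reported.

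Symbols, types and coordinates came from GENCODE M21 (GRCm38), where 42462 of 43346 mouse genes were found. The 26248 entries with numeric identifiers were left out. Modules and core subunits follow textbook structure. Named genes were the 10 highest and 5 lowest subunits, every Ndufaf gene, the 7 core subunits, members past a ratio of 1.5 and members whose leading transcript differed between pools. Others are named as examples of their module, and results of some genes named by this rule are not reported here. The members, lists, motifs and tests were chosen with earlier results of these data known.

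With 1 group no test was made and no p-value is given. Ratios use log2(TPM + 1), with a pseudocount of 1, among genes that average 1 TPM or more. They were also adjusted by lowess (span 30%) on length and expression. No outcome of a test of this adjustment on simulated data is given here. The background of genes that average 100 TPM or more, the copy sums, the M21 lengths and the shares of overlapping intervals, leading transcripts and other scalings over all genes were added after seeing the data. Copies were found by BLAST+ 2.17.0 between M21 coding sequences and pseudogene transcripts (at least 95% identity over 90% of the sequence). Promoter windows came from RefSeq. Scalings came from edgeR 4.0.16 (TMM) and DESeq2 1.42.0 on counts in R 4.3.3. Counting intervals are exact Poisson at 95%. Other steps ran in Python 3.11.15 with pandas 2.3.3, numpy 2.4.6, statsmodels 0.14.6 for lowess, scipy 1.17.1 for intervals and matplotlib 3.10.9 for plots. CPM was computed from the counts of mouse genes.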

Additional observations from a re-analysis of the deposited data

How the results depend on the processing

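The counts of detected subunits (37) and assembly factors (8) stayed at 37 and 8 at a TPM of 0.5 or 5, at 10 counts and in each pool alone. With means in place of medians the subunits had 874 TPM, the assembly factors 92.0 TPM and their log2 difference was 2.89. With TPM rescaled to nuclear protein-coding genes the medians were 1106 and 113 TPM. In CPM they were 383 and 69.3, with a difference of 2.45. The difference was 3.30 over detected members, 3.29 at a pseudocount of 0.1, and 3.33 with Ndufb4 summed with its copy or with Ndufa11 at its M21 length, both chosen after seeing the data. Leaving out a pool gave 755 to 799 TPM for the subunits, 76.6 to 82.4 TPM for the assembly factors and 3.27 to 3.29 for the difference. On the spike-in scale the median log2 ratios of pool 2 to pool 1 were 0.76 for subunits and 0.66 for assembly factors, and 33 subunits passed a ratio of 1.5, against 49.8% of protein-coding genes, whose median was 0.58. The median log2 ratio of spike-ins was -0.66, and this scale subtracts that value from the log2 ratio of every gene, which raises each ratio. With TMM and DESeq2 scaling the subunit median was 0.21 and 0.20 and no subunit passed. By expected counts 30 in place of 29 genes kept their leading transcript. For the other moved values the cause was not tested. No paired analysis was possible because there is 1 group. Depth limits Ndufa4l2 alone among the members, with 15 and 6 counts.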
